A study of Mus musculus with 12 samples.

Results

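Mouse left ventricles relieved of pressure overload for 3 days were set against left ventricles still under that overload, using 6 of the 12 arrays of the series. The 3 debanded mice (group DB3) had an aortic band for 4 weeks, which was then taken off, and were sampled 3 days later. The 3 banded mice (group AB) were sampled 4 weeks after banding with the band in place. All were male C57BL/6 mice, first operated on at 7 weeks of age. Members were chosen by group label alone, and no measured value entered the choice. The other 6 arrays serve as reference: 3 mice with a sham operation (sAB) and 3 with a sham operation followed by a debanding operation (sDB3). DB3 mice were thus 3 days further from the first operation than AB mice and had undergone a second operation, which cannot be told apart from the release of the band within this pair of groups. The sDB3 group carries the later time and the second operation without the overload, and its values are given beside part of the results only. AB and sDB3 differ in the band and also in time and in the second operation. AB minus sDB3 is therefore not the effect of the band alone. Where neither an sDB3 value nor a sham difference is given, the difference from AB stands without that reference. Expression was measured on Affymetrix arrays hybridised with biotin-labelled cRNA made from 3 µg of ventricular RNA, 1 array per mouse. Values are log2 signals, so that a difference of 1 is a doubling.

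A constriction of the aorta raises the pressure against which the left ventricle ejects. Cardiomyocytes thicken and switch on fetal genes such as natriuretic peptides and the slow myosin heavy chain, fibroblasts lay down matrix, and genes of fatty acid oxidation and of repolarising potassium currents are commonly reduced. Taking the band off lets the wall unload, a process called reverse remodelling, and a direct comparison of unloaded with still loaded ventricle shows which transcripts differ soon after the load is lifted.

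All 6 arrays carried high levels of cardiomyocyte genes, with a mean over the 10 listed markers of 15.18 to 15.22 in DB3 and 15.29 to 15.35 in AB. The list holds the load-responsive Nppa (-1.16), and its median difference was 0.019. Correlations between arrays of a group, over all probe sets with 1 gene symbol, were 0.99565 to 0.99818, and those between DB3 and AB arrays 0.99456 to 0.99623. The 3′ minus 5′ signal of the Actb control, a reading of RNA integrity and labelling, was 1.02 to 1.13 in AB and 1.11 to 1.32 in DB3; its part in the results was not tested. The spike-in control BioC read 9.82 to 10.15 on the sAB arrays and 7.73 to 8.24 on the other 9. Of the 43 gene lists used, 14 are markers of cell types.

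Of 10435 genes tested, 956 differed between DB3 and AB at an adjusted p under 0.05 in limma (9.16%). These were 422 genes higher in DB3 (4.04%) and 534 lower (5.12%), of which 44 and 83 differed at least 2-fold. The 3 DB3 values lay wholly above the 3 AB values in 1532 genes (14.7%) and wholly below in 1838 (17.6%). The count rested on the arrays used: leaving out AB replicate 2 gave 407 genes, AB replicate 3 gave 365, DB3 replicate 1 gave 608 and DB3 replicate 3 gave 634. With 3 arrays in each group the smallest exact permutation p is 0.1, so the calls borrow their error from all genes and from the 4 groups together. The lowest unadjusted p belonged to Tnfrsf12a, the receptor of the cytokine TWEAK, with a difference of -2.09 (SE 0.10, adjusted p = 4.56e-06). In the comparisons with sDB3, which share arrays with DB3 against AB, 560 genes were higher (5.37%) and 104 lower (0.997%) in DB3, and 1809 were higher (17.3%) and 489 lower (4.69%) in AB. A test of whether the DB3 minus AB difference was unequal, in either direction, to the sDB3 minus sAB difference passed for 630 genes (6.04%).

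**Figure D1:**
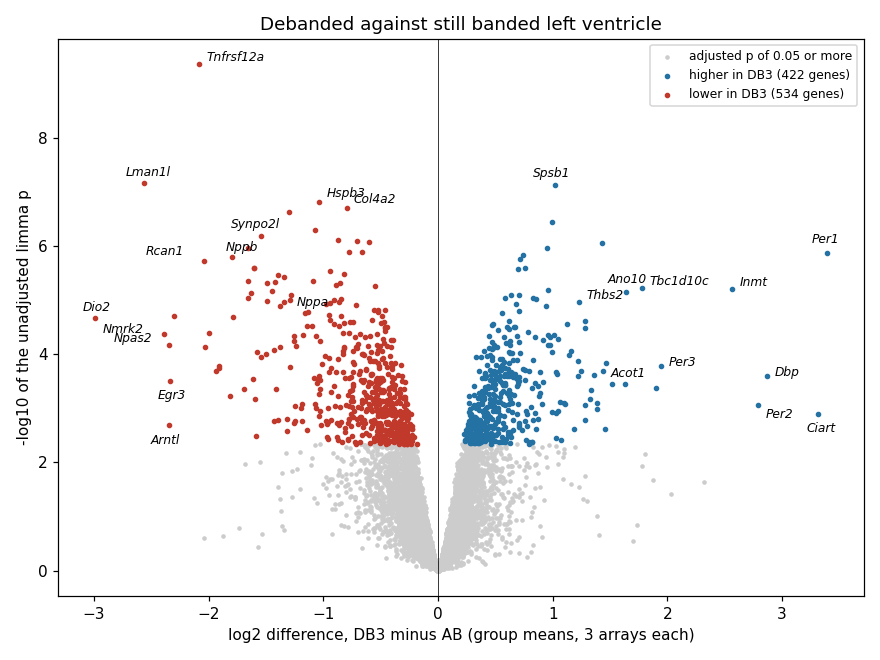
Each point is 1 of 10435 genes, placed by the log2 difference DB3 minus AB (x) and by the -log10 of its unadjusted limma p (y). Blue marks the 422 genes higher in DB3 and red the 534 lower. Tnfrsf12a is the highest point on the left, and the clock genes Per1, Ciart, Dbp and Per2 lie farthest to the right.

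Among the 43 lists, the hypertrophic programme had the largest share of lower members. The lists were chosen with earlier results of these data known, so this rank is a description and no support. Of its 21 tested genes 15 were lower in DB3 and none was higher, with a median difference of -1.02 against -0.0173 over all genes. All 21 had a DB3 mean below the AB mean. They include the atrial genes Myl4 and Myl7, which did not pass and varied widely between arrays. Over the 6 arrays Myl4 spanned 5.24 to 12.6 and Myl7 4.67 to 12.7. The number lower was 10 to 15 as single arrays were left out. The same list had a median of 1.30 in AB minus sDB3 and of -0.00855 in DB3 minus sDB3. In DB3 against sDB3, 4 of its genes were higher and 1 lower. In whole tissue, less RNA per cell and fewer cells of a type cannot be told apart.

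Nppa, which encodes the atrial natriuretic peptide, read 13.56, 13.99 and 14.29 in DB3 and 14.90, 15.19 and 15.21 in AB. Every DB3 array was below every AB array, and the sDB3 arrays were lower still, at 12.93 to 13.11. The difference was -1.16 (SE 0.16, 95% interval -1.50 to -0.81, adjusted p = 0.0026), or 2.23-fold. DB3 was above sDB3 by 0.91 (adjusted p = 0.0171). Nppa is also an atrial gene, and atrial markers varied between arrays: Myl7, the atrial regulatory light chain, read 9.46, 12.72 and 4.67 in DB3 and 11.62, 9.41 and 11.94 in AB. The mean of the 11 atrial markers spanned 6.74 to 9.37 in DB3 and 7.95 to 8.96 in AB. DB3 replicate 3 had the lowest Myl7 and the highest Nppa of its group. The part of atrial tissue in the Nppa difference was not tested.

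Nppb, the gene of the B-type natriuretic peptide, read 11.79, 12.29 and 12.74 in DB3 against 13.90, 14.18 and 14.13 in AB. The groups did not overlap, and the difference was -1.80 (SE 0.19, adjusted p = 0.000826). Unlike Nppa, its DB3 minus sDB3 value of -0.36 did not pass (adjusted p = 0.256). Whether Nppa and Nppb differ in this was not tested.

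Myh7, the slow myosin heavy chain of the fetal ventricle, read 11.97, 11.42 and 12.18 in DB3 and 12.41, 12.98 and 13.23 in AB. The groups lay close to each other without overlap, and both were far above the sDB3 arrays, at 9.79 to 10.23. Its difference from AB was -1.02 (SE 0.25, adjusted p = 0.031) and its difference from sDB3 1.89 (adjusted p = 0.00929). The call against AB was lost without DB3 replicate 1 or 2 or AB replicate 2 or 3 (adjusted p = 0.0645 to 0.124). Myh6, the adult myosin heavy chain, did not pass (0.04, SE 0.06, adjusted p = 0.694).

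Acta1, skeletal alpha-actin and a second fetal gene of the sarcomere, read 14.24, 14.53 and 14.78 in DB3 and 14.98, 15.15 and 15.15 in AB. The DB3 arrays were all below the AB arrays, but the difference of -0.58 (SE 0.21) did not pass (adjusted p = 0.12). Against sDB3 it was higher in DB3 by 1.12 (adjusted p = 0.0237), a call lost without DB3 replicate 2 or 3 (highest adjusted p 0.054). Ankrd1, a stretch-responsive protein of the I-band, read 14.58, 14.23 and 14.43 in DB3 and 14.90, 15.15 and 15.14 in AB. It differed from AB by -0.65 (adjusted p = 0.0138) and from sDB3 by 0.68 (adjusted p = 0.0246). The call against AB was lost without AB replicate 2 or 3 (adjusted p = 0.0614 and 0.0621), and the call against sDB3 without DB3 replicate 1 or 3 or sDB3 replicate 1 or 2 (highest adjusted p 0.0678).

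Rcan1, a target and inhibitor of calcineurin, read 9.47, 9.55 and 9.71 in DB3 and 11.35, 11.93 and 11.58 in AB. All AB arrays were more than 1.5 above all DB3 arrays, and the sDB3 arrays, at 9.10 to 9.95, enclosed the DB3 values. The difference was -2.04 (SE 0.22, adjusted p = 0.000899). Synpo2l, a Z-disc protein, read 11.67, 11.44 and 11.41 in DB3 and 12.69, 13.18 and 13.28 in AB, with no overlap, and differed by -1.54 (adjusted p = 0.000709). Its DB3 minus sDB3 value was -0.01 (adjusted p = 0.979). Enah, an actin regulator of the intercalated disc, differed by -0.71 (SE 0.07, adjusted p = 0.000709), and Uck2, a uridine-cytidine kinase, by -1.38 (SE 0.18, adjusted p = 0.00215). Meox1, a homeobox factor of activated cardiac fibroblasts, read 6.35, 7.03 and 6.80 in DB3 and 8.11, 8.79 and 9.27 in AB. The difference was -2.00 (adjusted p = 0.00405). The remaining members that passed include Mybpc2 at -1.34, Frzb at -1.25, Flnc at -0.71 and Xirp1 at -0.59. Against sDB3, Xirp1, an actin-binding protein of the intercalated disc, was lower in DB3 (-0.415, adjusted p = 0.0427), a call lost without DB3 replicate 1, 2 or 3 or sDB3 replicate 1 or 2 (highest adjusted p 0.113). Enah, Uck2, Meox1, Mybpc2, Frzb and Flnc did not pass against sDB3 (-0.24 to 0.50, adjusted p = 0.107 to 0.819). Frzb lost its call without DB3 replicate 1 or 3 or AB replicate 2 or 3 (adjusted p = 0.0673 to 0.0963).

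**Figure D2:**
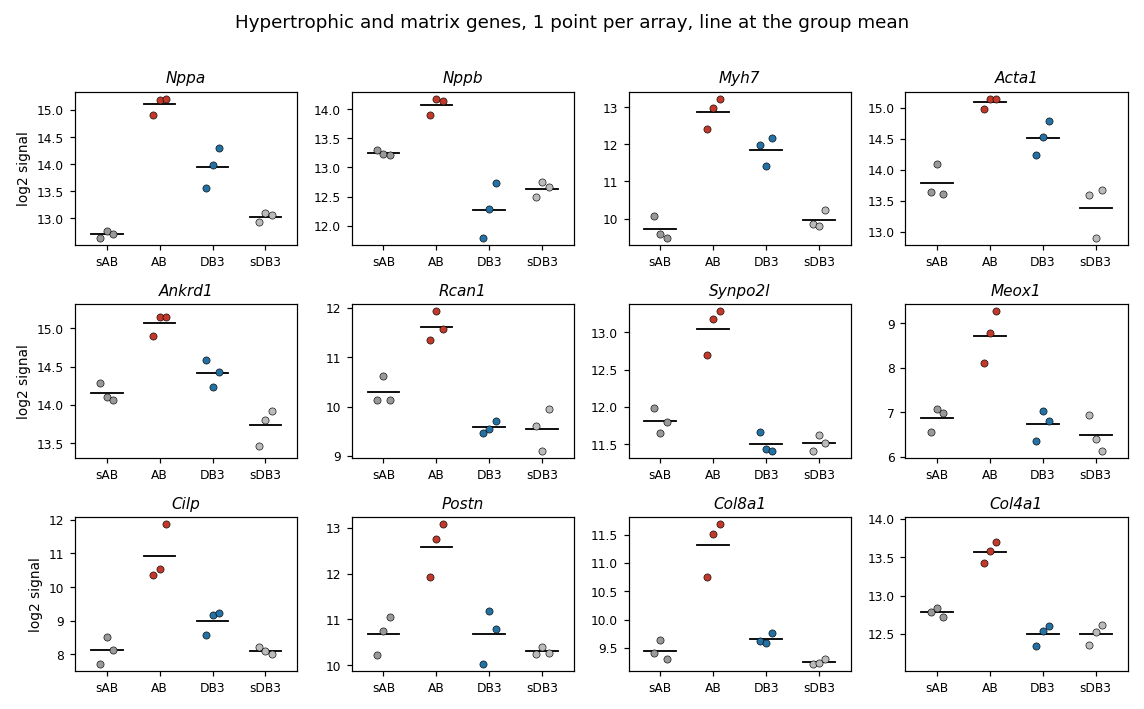
Log2 signal (y) of 12 genes in the 4 groups of 3 mice, 1 point per array, with a line at the group mean. In each panel the DB3 points lie below the AB points; for Nppa, Myh7, Acta1 and Ankrd1 the DB3 points lie above those of sDB3, while for Rcan1, Synpo2l and Col4a1 the DB3 and sDB3 ranges overlap.

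Basement membrane and other non-fibrillar collagens formed the second group of lower genes. Of 15 tested, 10 were lower in DB3 and none higher, with a median of -0.973, and 7 to 13 were lower as single arrays were left out. Their median was 1.01 in AB minus sDB3 and 0.0136 in DB3 minus sDB3. Col4a1, a chain of the collagen IV network around myocytes and vessels, read 12.34, 12.54 and 12.61 in DB3 and 13.43, 13.58 and 13.70 in AB. Every AB array was at least 0.8 above every DB3 array, and the sDB3 range of 12.35 to 12.62 was that of DB3. The difference was -1.07 (SE 0.10, adjusted p = 0.000669). Its partner chain Col4a2 differed by -0.79 (SE 0.07, adjusted p = 0.000403) and Col4a4 by -0.95. Col4a3, also counted among the 10, was above log2 4 on the AB arrays alone (4.34 to 4.74, against 2.58 to 3.09 in DB3) and so had to differ to be tested. Col8a1, a short-chain collagen, read 9.62, 9.58 and 9.76 in DB3 against 10.75, 11.51 and 11.68 in AB, and the difference of -1.66 (SE 0.20, adjusted p = 0.00144) exceeded the spread of both groups. Col15a1, a basement membrane zone collagen, differed by -1.14 (adjusted p = 0.00255).

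Fibrillar collagens, which carry the tensile strength of scar, were less uniform. Of 7 tested, 2 were lower and none higher, and without DB3 replicate 2 it was 4, while without DB3 replicate 1 or 3 or AB replicate 2 or 3 it was 1. Col1a1, the major chain of type I collagen, read 8.96, 10.63 and 9.27 in DB3 and 10.65, 10.63 and 11.66 in AB. DB3 replicate 2 lay at the level of 2 of the AB arrays, the groups overlapped and the difference of -1.36 (SE 0.47) did not pass (adjusted p = 0.103). It passed without that array (-1.86, adjusted p = 0.0302) and with the mean of its probe sets (-1.40, adjusted p = 0.0464). Col3a1, of type III collagen, read 11.65, 13.13 and 12.16 in DB3 and 12.97, 13.19 and 13.65 in AB, and its value of -0.95 (SE 0.41) did not pass either (adjusted p = 0.179). DB3 replicate 2 again stood within the AB range. Col5a3, a minor fibrillar chain, read 6.12, 6.63 and 6.45 in DB3 and 7.81, 7.91 and 7.96 in AB, without overlap, and was lower (-1.50, SE 0.18, adjusted p = 0.00144). Col5a2, at -1.39, lost its call without DB3 replicate 1 or 3 or AB replicate 2 or 3 (adjusted p = 0.0679 to 0.114).

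Matrix glycoproteins and proteoglycans were lower in 13 and higher in 2 of 43 genes (median -0.55). The lower share was 30.2%, against 5.12% over all genes, and the higher share of 4.65% was near the 4.04% over all genes. The number lower was 15 without DB3 replicate 2, 7 without DB3 replicate 1 or AB replicate 2, 8 without DB3 replicate 3 and 6 without AB replicate 3. In DB3 against sDB3, 6 genes of this list were higher and none lower (median 0.286), where 5.37% were higher over all genes. Postn, periostin of activated fibroblasts, read 10.03, 11.19 and 10.80 in DB3 and 11.92, 12.75 and 13.08 in AB. The lowest AB array was above the highest DB3 array, and the difference was -1.91 (SE 0.34, adjusted p = 0.00788), or 3.75-fold. Cilp, a matrix protein that binds TGF-beta, read 8.58, 9.18 and 9.22 in DB3 and 10.37, 10.54 and 11.87 in AB, and was lower (-1.93, adjusted p = 0.00894). Thbs4, thrombospondin 4, read 7.58, 8.04 and 7.96 against 9.32, 9.50 and 10.85, with a difference of -2.03 (adjusted p = 0.00512). In both genes AB replicate 3 was more than 1 above the other AB arrays. Sparc, a collagen-binding glycoprotein, differed by -0.90 (adjusted p = 0.00331), Lamb1, a laminin chain, by -0.55 (adjusted p = 0.00158) and Nid1, which bridges laminin and collagen IV, by -0.49 (adjusted p = 0.0105). Vcan, versican, differed by -1.59 and Mfap5, a microfibril protein, by -1.26, and both lost their call without DB3 replicate 1 or 3 or AB replicate 2 or 3 (adjusted p = 0.0531 to 0.0704 for Vcan and 0.066 to 0.12 for Mfap5). Nid1 lost its call without AB replicate 3 (adjusted p = 0.0527).

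The 2 glycoprotein genes that were higher were Thbs2 and Lama5. Thbs2, thrombospondin 2, an antiangiogenic matrix protein, read 8.14, 8.0 and 8.10 in DB3, 6.77, 6.55 and 7.23 in AB and 7.19, 7.17 and 6.90 in sDB3. The 3 DB3 arrays stood above both other groups. DB3 was higher than AB by 1.23 (SE 0.16, adjusted p = 0.00202) and than sDB3 by 0.99 (adjusted p = 0.0146). Lama5, a laminin chain of mature vessels, was higher by 0.86 (adjusted p = 0.00195), and its 0.43 above sDB3 (adjusted p = 0.0449) was lost without any 1 of the 6 DB3 and sDB3 arrays (highest adjusted p 0.114).

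Collagen processing genes were lower in 5 of 20 (median -0.241) and matrix proteases and inhibitors in 4 of 23 (median -0.11), with none higher in either. The first count was 2 to 6 as single arrays were left out, with 2 without DB3 replicate 1 or AB replicate 3 and 3 without DB3 replicate 3 or AB replicate 2. The second was 2 without DB3 replicate 1, 2 or 3 or AB replicate 2 or 3. Serpinh1, the collagen chaperone, read 11.89, 11.86 and 11.91 in DB3 and 12.26, 12.46 and 12.46 in AB, and the difference of -0.51 (SE 0.08, adjusted p = 0.00512) was small against tight groups. P3h2, a collagen prolyl hydroxylase, differed by -0.63 (adjusted p = 0.00412), Loxl1, a lysyl oxidase that crosslinks elastin, by -0.96 and Pcolce, an enhancer of procollagen cleavage, by -0.78. Loxl1 and Pcolce lost their calls without DB3 replicate 1 or 3 or AB replicate 2 or 3 (adjusted p = 0.0749 to 0.117 and 0.0533 to 0.0784). Plat, tissue plasminogen activator, differed by -0.68 (adjusted p = 0.00893) and Adamts9, a versican protease, by -1.04 (adjusted p = 0.0105), lost with the mean of its probe sets (-0.85, adjusted p = 0.126). Adam19, at -1.32, and Mmp14, at -0.97, each lost the call without any 1 of the 6 arrays (highest adjusted p 0.116 and 0.157). Timp1, the protease inhibitor, read 4.97, 5.72 and 5.57 in DB3 and 6.11, 7.36 and 7.83 in AB, and its -1.68 (SE 0.54) did not pass (adjusted p = 0.0813). It passed without AB replicate 1 (-2.17, adjusted p = 0.037) and without the sAB arrays (adjusted p = 0.0415).

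Fibroblast markers shared members with the matrix lists, among them Col1a1, Col3a1 and Postn. The mean over the 18 fibroblast markers was 9.51, 10.20 and 9.73 in DB3 and 10.13, 10.43 and 10.58 in AB. DB3 replicate 2 lay above AB replicate 1. Among these markers 3 were lower (Meox1, Postn and Mfap5) and 2 higher (Dpep1 at 0.62 and Gsn), with a median of -0.533. The 3 lower genes are also members of the hypertrophic or matrix lists above and are no separate reading of fibroblasts. The number lower was 6 without DB3 replicate 2, and the number higher 1 without any 1 array other than DB3 replicate 2. Dpep1 lost its call without DB3 replicate 1 or 3 or AB replicate 1, 2 or 3 (highest adjusted p 0.129). Of the 18 markers, 13 had a DB3 mean below the AB mean and 5 above. Over the 6 arrays the resident fibroblast marker Pdgfra spanned 9.55 to 9.79, while Thy1 spanned 6.03 to 7.95 and Cd248 5.63 to 7.31. The part of fibroblast number in the matrix differences was not tested.

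Signals that act on matrix and vessels come next. TGF-beta and BMP genes were lower in 5 of 39 (12.8%, against 5.12% over all genes), with a median of -0.165. The 2 higher genes (5.13%) were near the share of 4.04% over all genes. The lower count was 3 without DB3 replicate 1 or 3 or AB replicate 2 or 3, and the higher count 1 without AB replicate 3. Tgfb2, a TGF-beta ligand, read 7.10, 7.26 and 7.06 in DB3 and 8.28, 8.95 and 9.08 in AB. The groups were more than 1 apart, and the difference was -1.63 (SE 0.20, adjusted p = 0.00178). Ltbp2, a microfibril protein of the latent TGF-beta binding protein family, differed by -1.91 (SE 0.34, adjusted p = 0.00826), and Fstl3, a follistatin-like inhibitor of activins, by -0.95 (adjusted p = 0.00279). Fstl1, at -1.15, lost its call without DB3 replicate 1 or 3 or AB replicate 2 or 3 (adjusted p = 0.0846 to 0.139). Ccn2, the connective tissue growth factor, read 10.39, 11.41 and 11.55 in DB3 and 11.32, 11.93 and 12.19 in AB, and its -0.70 (SE 0.34) did not pass (adjusted p = 0.238).

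Among 23 vessel growth factors and receptors 3 were lower and 3 higher (median 0.0862). The number higher was 0 without DB3 replicate 1 or AB replicate 2 or 3, and 1 without DB3 replicate 2 or 3. Aplnr, the apelin receptor, read 11.55, 10.44 and 10.71 in DB3 and 12.45, 12.46 and 12.55 in AB, and was lower (-1.58, SE 0.26, adjusted p = 0.00578). The AB arrays agree within 0.1 and the DB3 arrays spread over more than 1. Hbegf, a ligand of the EGF receptor, differed by -0.85 (SE 0.12, adjusted p = 0.00279). Vegfa, the main endothelial growth factor, read 9.52 and 9.89 in DB3 replicates 1 and 2 and 10.30, 10.58 and 10.09 in AB, and DB3 replicate 3 lay just below the lowest AB array. Its difference of -0.52 (adjusted p = 0.0435) was lost without DB3 replicate 1 or 2 or AB replicate 1 or 2 (adjusted p = 0.0671 to 0.154). Angpt1, the vessel-stabilising ligand of Tie2, was higher by 1.02 and Fgf16, a growth factor of cardiomyocytes, by 0.77. Angpt1 lost its call without DB3 replicate 1 or 2 or AB replicate 2 or 3 (adjusted p = 0.0598 to 0.0948), and Fgf16 without DB3 replicate 1 or 3 or AB replicate 2 or 3 (adjusted p = 0.0636 to 0.0867). Endothelial markers had a mean of 9.19 to 9.30 in DB3 and 9.40 to 9.46 in AB over 23 genes, with 2 lower and none higher (0 lower without DB3 replicate 3 or AB replicate 1 or 2, 1 without AB replicate 3), of which Cldn5, a tight junction claudin, at -1.24, lost its call without DB3 replicate 1 or 3 or AB replicate 1 or 2 (adjusted p = 0.0523 to 0.0639). Their part in these differences was not tested.

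Immediate early genes were lower in 3 of 23 (median 0.0914) and none was higher; 1 was higher without DB3 replicate 1. Egr3, an early growth response factor, read 3.90, 4.82 and 3.58 in DB3 and 6.05, 7.05 and 6.21 in AB, and was lower (-2.34, SE 0.45, adjusted p = 0.0105). Egr2 read 3.25, 3.27 and 3.08 against 4.49, 5.01 and 5.07. It was above log2 4 on the AB arrays alone, so that it entered the test through the group where it is high, and its place among the 3 lower genes is no support for the list. In both genes every AB array was more than 1 above every DB3 array, and the Egr2 values of DB3 and sDB3 (3.14 to 3.27) overlapped. Myc, at -0.67, lost its call without DB3 replicate 2 or AB replicate 2 or 3 (adjusted p = 0.0598 to 0.0798).

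Several of the largest falls belonged to genes outside these lists. Dio2, the enzyme that activates thyroid hormone, read 2.94, 3.96 and 3.76 in DB3 and 5.73, 6.52 and 7.38 in AB, with 2.57 to 3.79 in sDB3. Every AB array was more than 1.5 above every DB3 array, and the difference was -2.99 (SE 0.42, adjusted p = 0.00295). Dio2 was below log2 4 on every DB3 and sDB3 array, so a group where it is high brought it into the test. Its levels are given as a description. The excess of its DB3 minus AB difference over the sham difference did not pass. Lman1l, a lectin related to the cargo receptor ERGIC-53, read 2.29, 2.25 and 2.30 in DB3, next to the floor of the scale at 2.23, and 4.22, 5.08 and 5.22 in AB. It was above log2 4 on the AB arrays alone and so entered the test through them; its levels are given as a description. Nmrk2, a nicotinamide riboside kinase of muscle that makes NAD, read 7.05, 7.12 and 7.03 in DB3 and 8.51, 10.11 and 9.76 in AB. The DB3 arrays agree within 0.1 while AB replicate 1 was more than 1 below the other AB arrays, and the difference was -2.39 (SE 0.36, adjusted p = 0.00408). Spon2, a secreted spondin, differed by -2.30 (SE 0.32, adjusted p = 0.00279), and the shams differed by as much, -2.22.

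Genes of the adult sarcomere showed little difference. Of 20 tested, 1 was higher and 1 lower (median -0.0192). Each share was 5%, near the 4.04% higher and 5.12% lower over all genes. Tcap, the titin cap protein, read 14.25, 14.00 and 13.97 in DB3 and 13.09, 13.02 and 13.49 in AB and was higher (0.88, SE 0.18, adjusted p = 0.0155), a call lost without DB3 replicate 1 or AB replicate 2 (adjusted p = 0.0557 and 0.0674), and the shams differed by 0.82. Tnnc1, cardiac troponin C, at -0.22, lost its call without any 1 of the 6 arrays (highest adjusted p 0.14). Myl1, a fast light chain listed with skeletal muscle, read 10.92, 10.51 and 10.46 in DB3 and 11.57, 11.60 and 11.59 in AB and was lower (-0.95, SE 0.16, adjusted p = 0.00648), while the skeletal myosin Myh4 was at 2.24 to 2.4 on the 6 arrays.

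Calcium handling genes were lower in 4 and higher in 2 of 16 (median 0.0638), but without any 1 array 2 or fewer were lower and 1 or none higher, with 0 lower without AB replicate 2 or 3. Slc8a1, the sodium-calcium exchanger, read 8.44, 8.16 and 7.76 in DB3 and 8.79, 8.77 and 8.99 in AB. Its -0.73 (SE 0.17, adjusted p = 0.0221) was lost without DB3 replicate 3 or AB replicate 2 or 3 (adjusted p = 0.0559 to 0.0916). Casq1, the fast-muscle calsequestrin, differed by -1.59 and Asph, the junctin locus, by -0.54. Casq1 lost its call without AB replicate 1, 2 or 3 (adjusted p = 0.063 to 0.12) and Asph without DB3 replicate 1 or 2 or AB replicate 2 or 3 (adjusted p = 0.051 to 0.0779). Cacnb2, a calcium channel subunit, at 0.52, lost its call without any 1 array (highest adjusted p 0.127). Atp2a2, the calcium pump SERCA2, read 15.61, 15.65 and 15.61 in DB3 and 15.57, 15.43 and 15.55 in AB and did not pass (0.11, SE 0.06, adjusted p = 0.316).

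Potassium and sodium channel genes leaned the other way. Of 16 tested, 5 were higher in DB3 and none lower, with a median of 0.367; 3 were higher without AB replicate 3 and 6 without DB3 replicate 3. In AB minus sDB3 the list had 10 lower genes and 1 higher, and in DB3 minus sDB3 none higher and 1 lower. Scn4b, a sodium channel beta subunit, read 7.58, 8.02 and 8.23 in DB3 and 6.99, 6.86 and 6.98 in AB, and was higher (0.997, SE 0.16, adjusted p = 0.0057). Kcnip2, the subunit that sets the transient outward current, read 11.46, 11.27 and 11.22 in DB3, 10.92, 10.66 and 10.75 in AB and 11.18 to 11.25 in sDB3. DB3 and sDB3 values overlapped and AB lay below both, with a DB3 minus AB difference of 0.54 (SE 0.10, adjusted p = 0.00971) and a sham difference of 0.56. Kcnd2, a pore subunit of that current, at 0.64, lost its call without any 1 array (highest adjusted p 0.158). Kcnv2, a modifying subunit, differed by 0.75 (SE 0.08, adjusted p = 0.00107), and Abcc9, the SUR2 subunit of ATP-sensitive channels, by 0.41 (adjusted p = 0.01), lost without AB replicate 3 (adjusted p = 0.0507).

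Fatty acid oxidation and transport genes were higher in 7 of 30 and lower in none (median 0.176). The number was 1 without AB replicate 2 or 3, 3 without DB3 replicate 1, 4 without DB3 replicate 2 and 9 without AB replicate 1. The same 30 genes had 17 lower and none higher in AB against sDB3, groups that also differ in time and second operation. None passed in DB3 against sDB3. Acot1, an acyl-CoA thioesterase, read 7.68, 8.09 and 7.18 in DB3, 6.63, 5.79 and 6.22 in AB and 7.85 to 8.43 in sDB3. The DB3 arrays lay above AB, and the difference of 1.44 (SE 0.26, adjusted p = 0.00893) was 2.71-fold. Echs1, the enoyl-CoA hydratase, read 12.88, 12.80 and 12.79 in DB3 and 12.56, 12.18 and 12.23 in AB, higher by 0.50 (SE 0.10, adjusted p = 0.0128). Slc27a1, a fatty acid transporter, differed by 0.64, Crat, carnitine acetyltransferase, by 0.37 and Hadha, of the trifunctional protein, by 0.31. The calls on Echs1 and Crat were lost without AB replicate 2 or 3 (highest adjusted p 0.0621 and 0.0672), that on Slc27a1 without DB3 replicate 1 or AB replicate 2 or 3 (highest 0.096) and that on Hadha without DB3 replicate 1 or 2 or AB replicate 2 or 3 (highest 0.125).

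Of 18 fasting and PPAR-alpha responsive genes 2 were higher and none lower (median 0.118): Acot1, above, and Plin4, a lipid droplet coat protein, at 0.60 (adjusted p = 0.00971). Pdk4, the kinase that shuts off pyruvate dehydrogenase, did not pass (0.37, SE 0.19, adjusted p = 0.266). Among 59 genes of the respiratory chain and citrate cycle 2 were higher and none lower (median 0.0278). The higher share of 3.39% was below the 4.04% over all genes. The 2 were Sdha, by 0.36, and Ndufv1, by 0.23. None was higher without DB3 replicate 1 or 2 or AB replicate 2 or 3, and 1 without DB3 replicate 3. Sdha lost its call without DB3 replicate 1, 2 or 3 or AB replicate 2 or 3 (highest adjusted p 0.123) and with the mean of its probe sets (0.18, adjusted p = 0.259), and Ndufv1 without DB3 replicate 1 or 2 or AB replicate 2 or 3 (highest 0.145).

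Glucose genes split, with 5 of 22 higher and 3 lower (median -0.00965). The number higher was 2 without DB3 replicate 1 or AB replicate 2 or 3 and 3 without DB3 replicate 2. Pfkp, the platelet-type phosphofructokinase, read 9.35, 9.22 and 9.38 in DB3 and 10.14, 10.41 and 10.33 in AB and was lower (-0.98, SE 0.13, adjusted p = 0.00209), at the level of sDB3 (8.90 to 9.38). Pgam1, a glycolytic mutase, differed by -0.66 (adjusted p = 0.0107). Pfkfb3, which makes the activator of phosphofructokinase, read 7.17, 6.45 and 6.90 in DB3 against 5.74, 5.77 and 5.88 in AB, and 5.88 on each sDB3 array. It was higher than AB by 1.04 (SE 0.16, adjusted p = 0.00446) and than sDB3 by 0.96 (adjusted p = 0.0161). Pdk1, a second pyruvate dehydrogenase kinase, differed by 0.63 (adjusted p = 0.00895; 0.0514 with only the DB3 and AB arrays fitted), Slc2a4, the insulin-responsive glucose transporter, by 0.39 and Fbp2, the muscle fructose bisphosphatase, by 0.78. Slc2a4 lost its call without DB3 replicate 1 or AB replicate 2 or 3 (highest adjusted p 0.0676) and Fbp2 without DB3 replicate 1 or 2 or AB replicate 2 or 3 (highest 0.125).

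The 4 largest rises belonged to the circadian clock. In this feedback loop the activators Arntl (BMAL1), Clock and Npas2 switch on the Per and Cry repressors, the Rev-erb genes Nr1d1 and Nr1d2, Ciart and the PAR-bZIP factors Dbp, Tef and Hlf through E-boxes, and Nfil3 opposes the PAR-bZIP factors at D-boxes. Activator and target transcripts peak at opposite phases of the day in heart. Of 20 clock genes tested 10 were higher in DB3 and 3 lower (median 0.683). Ciart and Per2 were below log2 4 on every AB array and above it on every DB3 array. They entered the test through groups where they are high, and their place among the 10 is no support for the list. The number of clock genes higher was 5 without AB replicate 3, 6 without AB replicate 2 and 7 or 8 without each of the others. None passed in DB3 against sDB3. The time of day of sampling is not given in the sources used here, and it cannot be told apart from the groups.

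Promoter letters of Ciart, Per1 and Per3 are shown because their windows hold one of these elements, from RefSeq on GRCm38.p6, 250 bases before to 50 after the annotated start, with E-box (CACGTG) or D-box (TTATGTAA) matches in capitals. The windows are Ciart at chr3:95882179-95882478 on the minus strand, Per1 at chr11:69098699-69098998 on the plus strand and Per3 at chr4:151044616-151044915 on the minus strand.
Ciart: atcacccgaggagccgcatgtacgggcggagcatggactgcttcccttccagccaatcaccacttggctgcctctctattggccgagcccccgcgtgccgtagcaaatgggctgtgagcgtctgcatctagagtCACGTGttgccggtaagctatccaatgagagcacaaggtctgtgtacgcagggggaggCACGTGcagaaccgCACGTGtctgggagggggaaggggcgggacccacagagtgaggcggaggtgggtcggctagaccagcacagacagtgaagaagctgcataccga
Per1: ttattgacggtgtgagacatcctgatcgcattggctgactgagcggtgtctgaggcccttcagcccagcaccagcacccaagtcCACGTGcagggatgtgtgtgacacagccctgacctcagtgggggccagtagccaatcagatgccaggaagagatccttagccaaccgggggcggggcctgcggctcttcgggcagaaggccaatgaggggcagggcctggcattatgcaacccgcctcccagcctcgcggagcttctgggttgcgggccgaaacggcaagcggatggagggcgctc
Per3: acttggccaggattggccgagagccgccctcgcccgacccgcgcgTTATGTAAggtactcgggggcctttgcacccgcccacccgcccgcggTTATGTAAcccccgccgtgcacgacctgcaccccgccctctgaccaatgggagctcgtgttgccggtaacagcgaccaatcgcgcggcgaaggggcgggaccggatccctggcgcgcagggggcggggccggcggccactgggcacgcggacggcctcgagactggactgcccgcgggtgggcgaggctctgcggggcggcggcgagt
Ciart holds 3 E-boxes, which begin at -116, -58 and -44 from the start, Per1 holds 1, at -166, and Per3 holds 2 D-boxes, at -205 and -158. A second Per1 window in the table holds none. Both strands were searched, and neither motif can overlap the other. An E-box stands in 7.15% and a D-box in 0.938% of 32851 promoter windows. Of the 17 clock genes with a window, 5 hold an E-box (Bhlhe41, Ciart, Cry1, Per1 and Tef) and 1 a D-box (Per3). The windows of Dbp, Hlf and Npas2 hold neither set of letters, and Per2 is among the 3 genes with no window used here.

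Per1, a repressor of the loop, read 6.62, 7.65 and 7.72 in DB3, 4.24, 3.88 and 3.69 in AB, 6.09, 6.64 and 5.32 in sDB3 and 4.40, 4.61 and 4.90 in sAB. The DB3 arrays were more than 2 above the AB arrays, and the difference was 3.39 (SE 0.35, 95% interval 2.62 to 4.17, adjusted p = 0.000767), or 10.5-fold. The shams differed by 1.38 in the same direction, and the excess of the banded difference over the sham difference was 2.01 (adjusted p = 0.0421). Ciart, a repressor of CLOCK and BMAL1, read 6.15, 6.01 and 6.25 in DB3 and 2.59, 2.61 and 3.26 in AB. In sDB3 it was 6.35, 6.65 and 2.85, so that sDB3 replicate 3 stood with the AB arrays. The difference of 3.32 (SE 0.76, adjusted p = 0.0233) was lost without any 1 of the 6 arrays (adjusted p = 0.0512 to 0.0845). It passed with only the DB3 and AB arrays fitted. It was also lost without a dim filter, without the sAB arrays and in the unmoderated analysis of variance. The error is shared by the 4 groups and so holds the spread of the sDB3 arrays.

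Dbp, an output factor of the clock, read 11.99, 11.21 and 11.32 in DB3, 7.70, 8.45 and 9.76 in AB, 11.09, 11.36 and 9.59 in sDB3 and 8.34, 8.02 and 8.62 in sAB. The later time point was high and the earlier one low in banded and sham mice alike, apart from sDB3 replicate 3 and AB replicate 3, which lay between. DB3 was higher than AB by 2.87 (SE 0.53, adjusted p = 0.00967), and the shams differed by 2.35. The excess of the banded over the sham difference, 0.52, did not pass (adjusted p = 0.725). Per2, a second repressor, read 5.16, 5.25 and 5.76 in DB3 and 2.67, 2.56 and 2.56 in AB, with 5.60, 5.69 and 2.71 in sDB3. It was higher by 2.79 (SE 0.61, adjusted p = 0.0191), a call lost without DB3 replicate 3 or AB replicate 2 or 3 (adjusted p = 0.0615 to 0.0685). Per3 was higher by 1.94 (adjusted p = 0.0079), Hlf by 1.52, Nr1d2 by 1.22 (adjusted p = 0.00696), Tef by 1.06, Cry2 by 0.84 and Nr1d1 by 0.79. Hlf and Cry2 lost their calls without AB replicate 3 (adjusted p = 0.053 and 0.0533), Tef without DB3 replicate 1 or AB replicate 2 or 3 (highest 0.0688) and Nr1d1 without DB3 replicate 1, 2 or 3 or AB replicate 1 or 2 (highest 0.16).

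Among the activators, Arntl and Npas2 were lower and Clock did not pass (-0.39, adjusted p = 0.0717). Arntl read 4.59, 5.47 and 5.79 in DB3, 7.91, 7.66 and 7.31 in AB, 5.08, 4.51 and 7.32 in sDB3 and 7.71, 7.82 and 7.60 in sAB. DB3 and AB did not overlap, and sDB3 replicate 3 again stood with AB. The difference of -2.35 (SE 0.58, adjusted p = 0.0314) was lost without DB3 replicate 1 or 2 or AB replicate 1, 2 or 3 (adjusted p = 0.0598 to 0.107). Arntl passed with only the DB3 and AB arrays fitted (adjusted p = 0.0176) and was lost without the sAB arrays (adjusted p = 0.0635). Npas2, the partner of BMAL1 that can replace CLOCK, read 3.62, 3.50 and 4.07 in DB3 and 6.18, 6.17 and 5.88 in AB, a difference of -2.35 (SE 0.37, adjusted p = 0.00503). Nfil3, the repressor at D-boxes, differed by -1.29 (SE 0.23, adjusted p = 0.00812). For Arntl, Npas2 and Nfil3 the shams differed by -2.07, -1.85 and -0.97, and the excess of the banded difference did not pass (adjusted p = 0.872, 0.612 and 0.596).

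**Figure D3:**
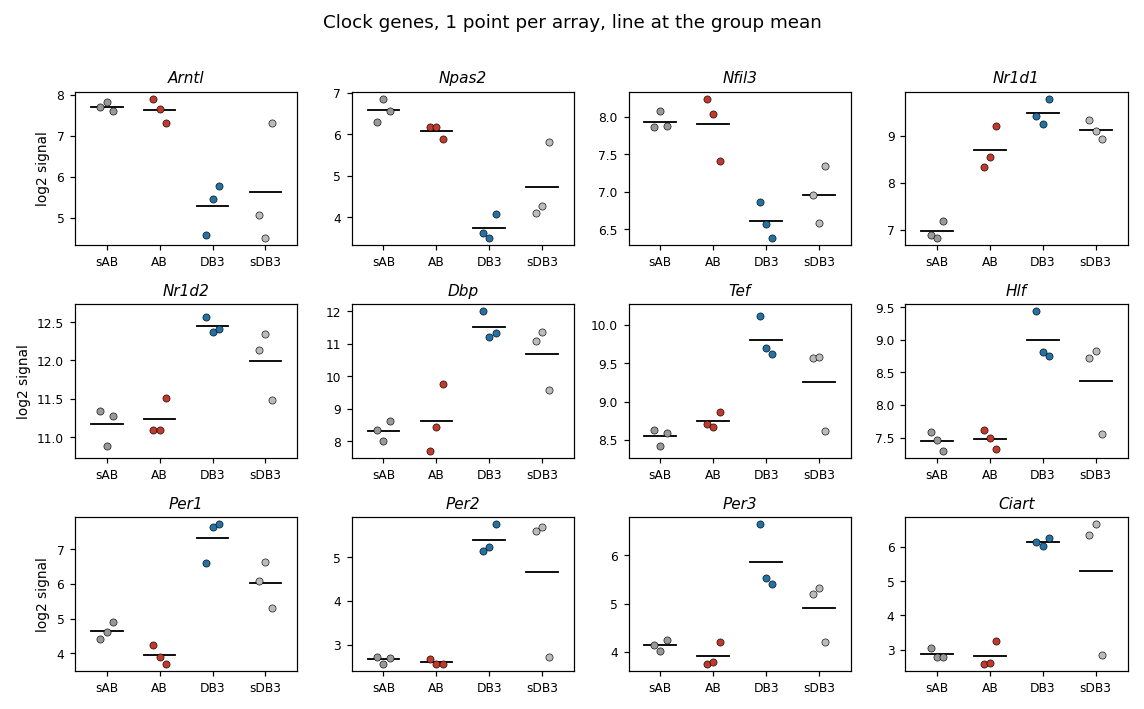
Log2 signal (y) of 12 clock genes in the 4 groups, 1 point per array, with a line at the group mean. Arntl, Npas2 and Nfil3 are high in sAB and AB and low in DB3. The other 9 have a higher mean in DB3 than in AB, and in Nr1d1 the AB points lie above those of sAB. In Arntl, Per2 and Ciart 1 sDB3 array (replicate 3) lies with the sAB and AB points.

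Glucocorticoid-responsive genes were higher in 5 of 18 and lower in none (median 0.616), with 10 higher without DB3 replicate 1. The 5 were Per1, Klf15, Mt2, Klf9 and Mt1. Per1 is also counted among clock genes, Klf15 among the FoxO and autophagy genes below, and Mt1 and Mt2 among the antioxidant genes below. Shared genes are no separate reading of these lists. Klf15, a repressor of hypertrophic genes and activator of lipid and amino acid use, read 9.52, 9.65 and 9.71 in DB3, 8.59, 8.14 and 8.32 in AB and 8.82 to 9.53 in sDB3. It was higher than AB by 1.28 (SE 0.18, adjusted p = 0.00318), or 2.42-fold. Klf9, a related factor, differed by 0.76 (SE 0.14, adjusted p = 0.0105). Among the members that did not pass, Tsc22d3, the glucocorticoid-induced leucine zipper, read 10.14, 11.21 and 11.36 in DB3 and 9.88, 9.85 and 9.69 in AB (1.09, SE 0.32, adjusted p = 0.0555), and Fkbp5 was at 0.46 (SE 0.47, adjusted p = 0.594). DB3 replicate 1 was the lowest of its group in Tsc22d3, and its reading in Fkbp5, 8.30, lay within the AB range.

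Antioxidant and metallothionein genes were higher in 5 of 24 and lower in none (median 0.0656); the count was 2 without DB3 replicate 1 or AB replicate 2 or 3 and 3 without DB3 replicate 2 or 3. Mt2, a zinc-binding metallothionein, read 10.73, 10.61 and 11.03 in DB3, 9.21, 9.89 and 9.54 in AB and 9.51 to 10.01 in sDB3. DB3 stood above both groups, by 1.25 over AB (SE 0.23, adjusted p = 0.00894), where the shams differed by 1.06, and by 1.09 over sDB3 (adjusted p = 0.0279), the second lost without DB3 replicate 1 or 3 or sDB3 replicate 2 or 3 (highest adjusted p 0.0754). Mt1 differed from AB by 0.61, lost without DB3 replicate 1 or AB replicate 2 or 3 (highest adjusted p 0.0889). Mt1 and Mt2 are also counted among the glucocorticoid-responsive genes above. Gstm1, a glutathione transferase, differed by 0.71 (SE 0.12, adjusted p = 0.00583), and Prdx3, a mitochondrial peroxiredoxin, by 0.33, lost without DB3 replicate 1, 2 or 3 or AB replicate 2 or 3 (highest adjusted p 0.112).

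Calls on genes of atrophy and protein turnover depended on the arrays used. Ubiquitin ligase, FoxO and autophagy genes were higher in 4 of 27 (14.8%, against 4.04% over all genes) and lower in none (median 0.122). Without AB replicate 3, 2 were higher. The largest of the 4, Klf15 at 1.28, is also counted among the glucocorticoid-responsive genes above. Foxo3, a transcription factor of muscle atrophy, read 10.19, 10.05 and 10.09 in DB3 and 9.51, 9.47 and 9.49 in AB, with tight groups and a difference of 0.62 (SE 0.10, adjusted p = 0.00577). Foxo4, at 0.46, lost its call without DB3 replicate 1 or AB replicate 2 or 3 (highest adjusted p 0.116), and Fbxo30, a ubiquitin ligase of atrophying muscle, at 0.40, without DB3 replicate 2 or 3 or AB replicate 1 or 3 (highest 0.0844). With the mean of its probe sets Fbxo30 was at 0.05 (adjusted p = 0.835). Proteasome subunits were lower in 3 of 32 (9.38%, against 5.12% over all genes, median -0.0989). With any 1 array left out, 1 or none was lower, so the list is given no direction. The 3 were Psmd8 (-0.35), Psme4 (-0.26) and Psma5 (-0.24), with a highest adjusted p of 0.158, 0.0903 and 0.152 with 1 array left out. Each was lost without DB3 replicate 2 or 3 or AB replicate 2 or 3. Psmd8 and Psma5 were also lost without DB3 replicate 1, and Psme4 and Psma5 without AB replicate 1.

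Of 20 cytosolic heat shock genes 5 were lower and none higher (median -0.0786), with 2 lower without AB replicate 2 or 3. Hspb3, a small heat shock protein of muscle, read 7.78, 7.94 and 8.11 in DB3, 9.02, 8.94 and 9.01 in AB and 8.46 to 8.65 in sDB3. The DB3 arrays were below both groups, by -1.04 against AB (SE 0.09, adjusted p = 0.000397) and -0.63 against sDB3 (adjusted p = 0.00938). Hspb6 differed from AB by -0.40 (adjusted p = 0.00448), Hspb1 by -0.38 and Hsp90aa1 by -0.50. Hspb1 lost its call without DB3 replicate 1 or AB replicate 2 or 3 (highest adjusted p 0.063) and Hsp90aa1 without AB replicate 2 or 3 (highest 0.0615). Endoplasmic reticulum genes were higher in 2 of 28 and lower in 1 (median -0.0801). The shares were 7.14% higher and 3.57% lower, against 4.04% and 5.12% over all genes. Herpud1, a membrane protein of ER-associated degradation, differed by 1.01 (adjusted p = 0.00411) and Canx, a lectin chaperone, by 0.35 (adjusted p = 0.00894). Asns, asparagine synthetase, differed by -0.91 (adjusted p = 0.0119).

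Some DB3 values lay outside both AB and sDB3. Tfrc, Alas1, Mycn, Cited4, Nampt, Art5, Cacna1s, Fmo2, Thbs2 and Lama5 were chosen after their values were seen, and both comparisons use the same DB3 arrays. Tfrc, the transferrin receptor that brings iron into cells, read 10.93, 10.60 and 10.45 in DB3, 12.36, 12.23 and 12.46 in AB and 12.68, 11.23 and 12.70 in sDB3. It was lower than AB by -1.69 (SE 0.34, adjusted p = 0.0128), lost without AB replicate 3 (adjusted p = 0.0558). Against sDB3 it differed by -1.54 (adjusted p = 0.0318), lost without DB3 replicate 1, 2 or 3 or sDB3 replicate 1 or 3 (highest adjusted p 0.0795). Alas1, the rate-limiting enzyme of heme synthesis outside red cells, read 10.89, 11.06 and 10.84 in DB3, 11.87, 11.67 and 11.84 in AB and 12.14, 11.70 and 11.84 in sDB3. The DB3 arrays were below all others, by -0.86 against AB (SE 0.11, adjusted p = 0.00202) and -0.96 against sDB3 (adjusted p = 0.00465). Blood markers, on average over 4 genes, read 7.03 to 7.61 in DB3 and 6.65 to 6.76 in AB; their part in Tfrc and Alas1 was not tested.

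Mycn, a Myc family factor, read 6.22, 5.67 and 5.53 in DB3, 7.17, 7.14 and 7.26 in AB and 6.50 to 7.02 in sDB3. It was lower than AB (-1.38, SE 0.22, adjusted p = 0.00512), and its -0.99 against sDB3 (adjusted p = 0.0334) was lost without DB3 replicate 2 or 3 or sDB3 replicate 1, 2 or 3 (highest adjusted p 0.0814). Cited4, a transcriptional coactivator, differed by -0.72 from AB (adjusted p = 0.00412) and -1.01 from sDB3 (adjusted p = 0.00423). Tnfrsf12a read 8.88, 8.92 and 8.66 in DB3, 10.72, 11.08 and 10.94 in AB and 9.31 to 9.43 in sDB3, so that DB3 was the lowest of the 3 groups. Its -0.54 against sDB3 (adjusted p = 0.0212) was lost without DB3 replicate 3 or sDB3 replicate 2 (highest adjusted p 0.0558).

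Inmt, an indolethylamine methyltransferase, read 9.82, 9.04 and 10.12 in DB3, 7.08, 7.13 and 7.09 in AB and 7.63 to 8.07 in sDB3. DB3 stood above both, by 2.56 over AB (SE 0.31, adjusted p = 0.00171), or 5.9-fold, and by 1.82 over sDB3 (adjusted p = 0.0171), the second lost without sDB3 replicate 2 (adjusted p = 0.0503). Nampt, the rate-limiting enzyme of NAD salvage, read 11.15, 10.82 and 10.98 in DB3, 10.41, 10.25 and 10.16 in AB and 10.36 to 10.53 in sDB3, and was higher by 0.71 (adjusted p = 0.00244) and 0.56 (adjusted p = 0.0165). Art5, an ADP-ribosyltransferase, was higher by 0.95 over AB (adjusted p = 0.000756) and 0.86 over sDB3 (adjusted p = 0.00423). Cacna1s, the skeletal calcium channel pore, was higher by 1.03 (adjusted p = 0.00901) and 0.99 (adjusted p = 0.0238), and Fmo2, a flavin monooxygenase, by 1.22 (adjusted p = 0.00971) and 0.88 (adjusted p = 0.0498). The sham calls on Cacna1s were lost without DB3 replicate 3 or sDB3 replicate 2, and those on Fmo2 without DB3 replicate 1, 2 or 3 or sDB3 replicate 2 or 3 (highest adjusted p 0.0609 and 0.114). Gm19277, a predicted gene, was higher by 1.90 (adjusted p = 0.0124) and 1.51 (adjusted p = 0.0441), the second lost without DB3 replicate 1 or 3 or sDB3 replicate 1 or 2 (highest 0.118).

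**Figure D4:**
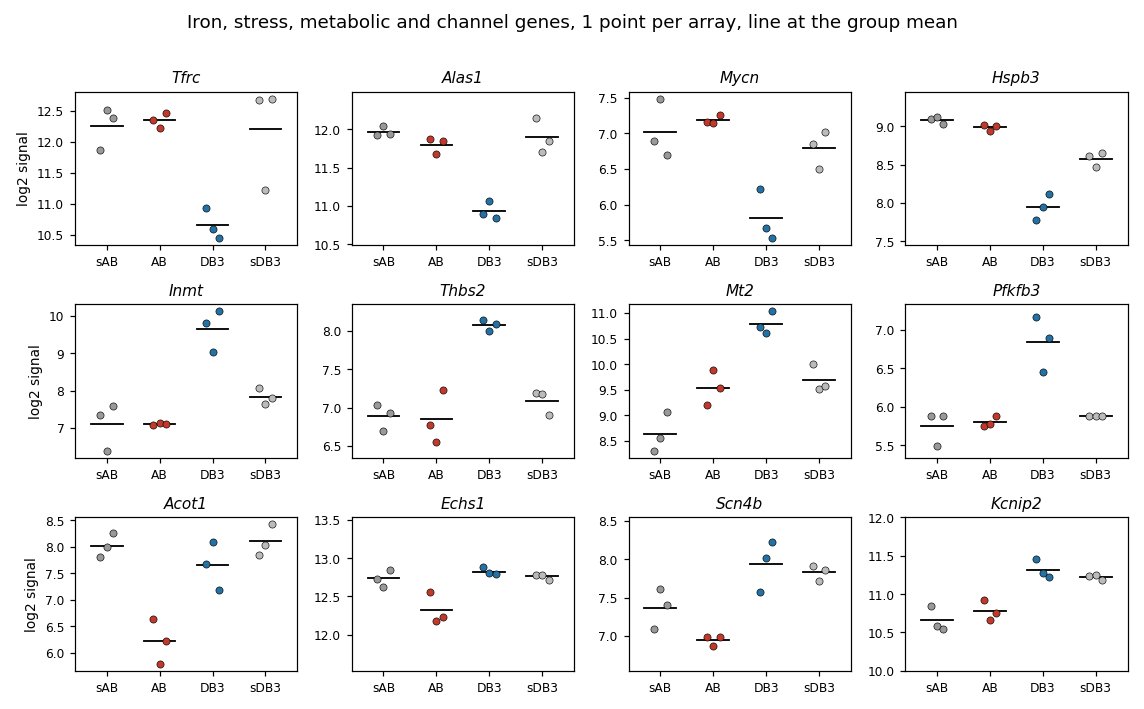
Log2 signal (y) of 12 genes in the 4 groups, 1 point per array, with a line at the group mean. In the upper row the DB3 points are the lowest of their panel, for Inmt, Thbs2, Mt2 and Pfkfb3 they are the highest, and for Acot1, Scn4b and Kcnip2 DB3 overlaps sDB3 with AB below, as nearly for Echs1.

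Other genes with large rises were Tbc1d10c, a Rab GTPase-activating protein, at 1.78 (SE 0.22, adjusted p = 0.00162), Ano10, an anoctamin, at 1.64 (SE 0.20, adjusted p = 0.00177), Ppl, periplakin, at 1.63 and Shld1, a subunit of the shieldin DNA repair complex, at 1.47 (adjusted p = 0.00735). The DB3 minus sDB3 values of Tbc1d10c, Ano10 and Shld1 were 0.30, 0.12 and 0.31 and did not pass (adjusted p = 0.405, 0.734 and 0.482). Ppl lost its call against AB without AB replicate 3 (adjusted p = 0.0515). Gnmt, glycine N-methyltransferase, chosen after its values were seen, read 7.52, 6.90 and 7.04 in DB3, 5.81, 5.68 and 5.67 in AB and 6.98 to 7.28 in sDB3, with a DB3 minus AB difference of 1.43 (SE 0.14, adjusted p = 0.000709). Pim3, a serine kinase chosen in the same way, was higher by 1.28 (adjusted p = 0.00342).

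Of 14 renin-angiotensin and adrenergic genes 1 was higher and 1 lower (median 0.00242). Each share was 7.14%, against 4.04% higher and 5.12% lower over all genes. The higher count was 0 without DB3 replicate 1, 2 or 3 or AB replicate 2 or 3. The lower count was 2 without DB3 replicate 1 and 0 without DB3 replicate 3 or AB replicate 2 or 3. Rgs2, a brake on Gq signalling, was higher by 0.85 and lost its call without DB3 replicate 1, 2 or 3 or AB replicate 2 or 3 (highest adjusted p 0.103). Npr3, the natriuretic peptide clearance receptor, was at -0.40 against AB and 0.40 against sDB3; the calls were lost without DB3 replicate 3 or AB replicate 2 or 3 (highest adjusted p 0.0763) and without DB3 replicate 1, 2 or 3 or sDB3 replicate 2 or 3 (highest 0.0787). With the mean of its probe sets Npr3 was at -0.23 against AB (adjusted p = 0.216). Cell cycle genes were higher in 2 of 22 and lower in 1 (median -0.0928). The shares were 9.09% higher and 4.55% lower, against 4.04% and 5.12% over all genes. It was 0 or 1 higher without DB3 replicate 1 or 2 or AB replicate 2 or 3. It was 2 lower without DB3 replicate 2 or AB replicate 2. Ccnd1, cyclin D1, was lower (-0.82, SE 0.13, adjusted p = 0.00512), while Cenpf, a kinetochore protein, at 1.46, and Cdkn1b, the inhibitor p27, at 0.39, were higher. Cenpf lost its call without DB3 replicate 1 or 2 or AB replicate 2 or 3 (highest 0.114) and Cdkn1b without DB3 replicate 1 or AB replicate 2 or 3 (highest 0.063). Tuba1a, an alpha-tubulin, was the 1 of 15 microtubule genes that passed (-0.60, adjusted p = 0.0186, list median -0.239). This share of 6.67% lower was near the 5.12% over all genes. The call was lost without DB3 replicate 1 or 3 or AB replicate 2 or 3 (highest 0.0792). In this list 2 genes were lower without DB3 replicate 2 or AB replicate 1.

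No gene passed among 32 cytosolic ribosomal proteins (median 0.0272), 20 acute phase genes (0.0889) or 26 interferon genes (0.0137), where 0, 2 and 3 genes had an unadjusted limma p under 0.05. The lowest p in each belonged to Rps9 (0.13, adjusted p = 0.316), Timp1, above, and Irf8 (-0.83, adjusted p = 0.0754). Without AB replicate 1, 2 acute phase genes were lower. Without DB3 replicate 1, 1 interferon gene was lower, and without DB3 replicate 3, 1 was higher.

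Among other cell types, monocyte and macrophage markers had 1 of 26 lower (3.85%, against 5.12% over all genes) and none higher (median -0.0509). That gene was Cx3cr1, the fractalkine receptor, at 6.30, 6.11 and 6.10 in DB3 and 7.20, 6.94 and 7.66 in AB (-1.10, SE 0.16, adjusted p = 0.00339). Smooth muscle and pericyte markers had 3 of 15 lower and 1 higher (median -0.00348), the lower ones being Cspg4 at -0.60, Mcam at -0.49 and Vtn at -0.33; 1 was lower and none higher without AB replicate 3. Cspg4 lost its call without DB3 replicate 3 or AB replicate 2 or 3 (highest adjusted p 0.0834), and Vtn without DB3 replicate 1 or 2 or AB replicate 1 or 3 (highest 0.102). Egfl7, the other endothelial gene that passed, at -0.31, lost its call without DB3 replicate 2 or 3 or AB replicate 1, 2 or 3 (highest 0.123). Markers of neutrophils, lymphocytes, mast cells, blood, epicardium, fat and nerve gave no call, apart from 1 higher epicardial gene without DB3 replicate 3 and 1 lower nerve gene without DB3 replicate 2; the members with the lowest p were S100a9 (0.63), Cd79b (-0.53), Kit (0.10), Slc4a1 (0.95), Aldh1a2 (-0.93), Pparg (0.25) and Sox10 (0.47), with adjusted p from 0.0887 to 0.835. The neutrophil markers Mpo and Elane and the mast cell marker Fcer1a were at the floor of 2.23 on all 6 arrays.

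**Figure D5:**
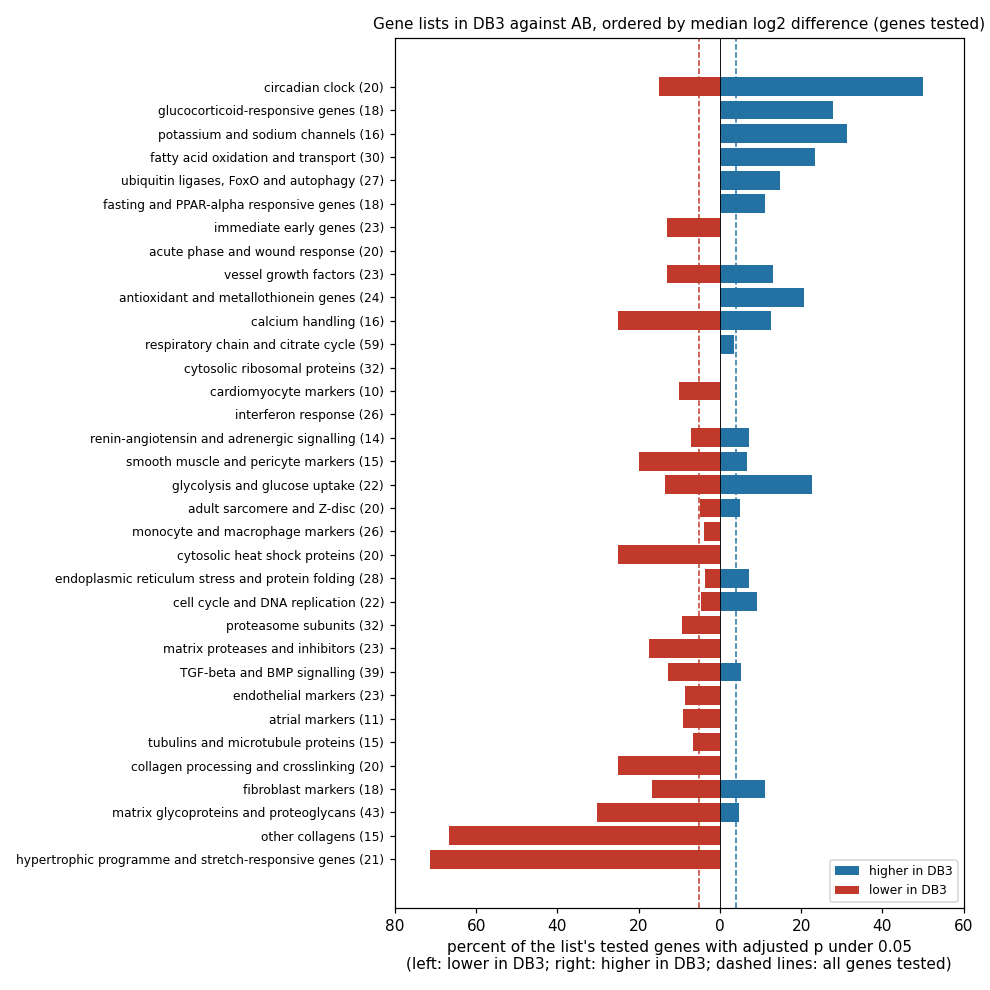
Share of each list's tested genes that were higher (blue, right) or lower (red, left) in DB3 than in AB at an adjusted p under 0.05, for lists with at least 10 genes tested (number in brackets). Dashed lines mark the shares over all 10435 genes, 4.04% higher and 5.12% lower. The hypertrophic programme (71.4%) and other collagens (66.7%) reach farthest left and the circadian clock (50%) farthest right. The lists were chosen with earlier results of these data known, so their ranks are a description only.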

How the data were processed

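The authors deposited log2 signals per probe set for 12 Affymetrix arrays, made with GCRMA, per the submitters' processing notes, with version, settings and genome build not given in the sources used here. Their scale was checked on the range of values. A floor holds 30.0% to 32.9% of probe sets per array and compresses folds near it. No further normalization was applied. Of 45101 probe sets, 34945 carry 1 gene symbol in the platform annotation, updated by gene ID through RefSeq (34741 found); the 932 with several symbols, 9160 with none and 64 controls were left out. A probe set was kept where log2 was above 4 on at least 3 of 12 arrays (17817), and the one with the highest mean represented each gene; 4608 genes had several, and for 1 gene, Uhrf1bp1l, they passed in opposite directions.

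Groups come from the labels, 3 mice each, and replicate numbers only name arrays. One limma 3.58.1 model (R 4.3.3; lmFit, eBayes) of the 4 groups, after the per-gene analysis of variance named in the series' description, gave DB3 against AB, both groups against sDB3, and the difference between DB3 minus AB and sDB3 minus sAB. Residual degrees of freedom were 8 and prior ones 2.68; p-values are two-sided and Benjamini-Hochberg adjusted over all 10435 genes, with a threshold of 0.05. The number of arrays limits the precision. Members and lists were chosen with earlier results of these data known. Named genes are the 12 largest rises and 12 largest falls among genes that passed without overlap between groups, 15 genes chosen for this tissue, from each list at most 4 passing members by size of difference, and, for lists with none passing, the member with the lowest p; 32 more were chosen after their values were seen (Tfrc, Alas1, Vegfa, Mycn, Cited4, Nampt, Thbs2, Lama5, Fmo2, Uck2, Mybpc2, Enah, Frzb, Flnc, Xirp1, Col4a2, Col4a4, Sparc, Lamb1, Nid1, Nr1d2, Nr1d1, Tef, Nfil3, Cry2, Pdk1, Slc2a4, Hadha, Art5, Cacna1s, Gnmt, Pim3), as were marker genes and list members named without a call. Alternatives were other dim filters, the mean of probe sets, every probe set, quantile normalization, median centring, fewer groups, eBayes with trend and robust, an unmoderated analysis of variance and leaving out each array. The omission of single arrays from list counts and from the comparison with sDB3 was chosen after seeing the data.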

Additional observations from a re-analysis of the deposited data

Results flagged for a closer look

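The results below differ between banded and sham mice: the DB3 minus AB difference was set against the sDB3 minus sAB difference in limma, and the value is the first minus the second on the log2 scale. All rest on the sAB arrays too, whose BioC spike-in read higher than on the other arrays. Among 151 named genes 58 passed, and 630 of 10435 over all genes (6.04%), each at an adjusted p under 0.05. These shares cannot be compared. Of the 151 named genes, 143 had passed in DB3 against AB. Many were named for the size of that difference, which is part of the value tested here.

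Genes of the hypertrophic programme had values below 0: Nppa -1.48, Nppb -1.19, Rcan1 -1.29, Synpo2l -1.25, Meox1 -1.62, Uck2 -1.65, Mybpc2 -1.01, Flnc -1.08, Xirp1 -1.07 and Enah -0.91. The matrix and TGF-beta genes were Thbs4 -1.96, Cilp -1.92, Col8a1 -1.46, Col15a1 -1.87, Col4a1 -0.79, Col4a2 -0.85, Col4a3 -1.31, Col5a3 -1.08, Sparc -0.77, P3h2 -0.57, Tgfb2 -1.70 and Fstl3 -0.87. Other named genes below 0 were Lman1l -2.55, Nmrk2 -2.48, Tnfrsf12a -1.60 and Egr2 -1.45. Lman1l, Egr2 and Col4a3 were above log2 4 on the AB arrays alone and entered the test through them. Heat shock, metabolic and muscle genes gave Hspb3 -0.53, Hspb6 -0.60, Hspb1 -0.47, Pfkp -0.76, Alas1 -0.79, Cited4 -0.67, Slc8a1 -0.91 and Myl1 -1.07, and markers of macrophages and mural cells Cx3cr1 -0.98, Cspg4 -0.81 and Mcam -0.63.

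Values above 0 were Inmt 1.83, Gm19277 2.44, Tbc1d10c 1.87, Ano10 1.69, Art5 1.15, Cacna1s 1.03, Thbs2 1.03, Lama5 0.70 and Nampt 0.84. Metabolic, channel and growth factor genes gave Fbp2 1.43, Pfkfb3 0.91, Pdk1 0.82, Kcnv2 0.75, Abcc9 0.47 and Fgf16 0.95, and turnover and stress genes Foxo3 0.60, Fbxo30 0.58, Prdx3 0.44 and Canx 0.40.

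Among clock genes 2 passed, with opposite signs. Per1 was at 2.01 (DB3 minus AB 3.39, sDB3 minus sAB 1.38). Nr1d1, the Rev-erb alpha repressor, was at -1.38 (0.79 and 2.17): it read 8.33, 8.54 and 9.22 in AB and 6.88, 6.82 and 7.19 in sAB.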

How the results depend on the processing

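The count of 956 genes (422 higher, 534 lower) became 639 without a dim filter, with 279 higher, and 629, with 252 higher, when only the DB3 and AB arrays were fitted; 577 and 526 genes of the 956 were shared. Leaving out 1 array gave 365 to 824 genes, 149 to 385 higher and 216 to 439 lower. The other alternatives at gene level gave 734 to 1194 genes, and testing every probe set gave 1411 of 17817. No scaling moved the median over all genes by more than 0.1. Of the 143 named genes that passed, none changed direction under any alternative run, 81 passed under all of them, and 62 were lost under at least 1. Under quantile normalization, median centring and without the sAB arrays, the hypertrophic programme had 15, 15 and 13 lower genes. Without the sAB arrays the number of higher genes went from 7 to 4 for fatty acid oxidation, from 5 to 3 for glycolysis and from 2 to 0 for both the respiratory chain and calcium handling. It went from 2 to 1 for the cell cycle and from 1 to 0 for renin-angiotensin genes, and from 0 to 1 for macrophage markers. The number of lower genes went from 3 to 1 for the proteasome, from 2 to 1 for endothelial markers and from 1 to 0 for the adult sarcomere, and from 0 to 1 for acute phase genes and blood markers. Centring each array gave 1 higher calcium handling gene, 1 lower endothelial gene and 2 lower tubulin genes. Quantile normalization gave 2 lower genes for the adult sarcomere, the cell cycle and cardiomyocyte markers. Both gave 1 higher respiratory chain gene and 1 higher immediate early gene. No paired analysis was possible because the labels give no replicate numbers that groups share. With 3 mice per group and a floor near 2.23, small differences and differences of dim genes could not be detected reliably.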
